A study of Mus musculus with 6 samples.

Results

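The antioxidant genes of the transcription factor NRF2 were followed in kidney RNA of diabetic db/db mice with and without long-term atorvastatin. The 10 genes were taken by symbol: Nfe2l2, which encodes NRF2, its inhibitor Keap1, and the targets Nqo1, Hmox1, Gclc, Gclm, Slc7a11, Txnrd1, Srxn1 and G6pdx. All 10 were among the 17684 genes of the table, and all 10 were among the 13679 genes that were tested, those that reached 10 counts in 3 or more libraries. Slc7a11 was the member nearest to that limit, with 7 counts in Db replicate 2 and 12 in each of Db replicates 1 and 3.

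NRF2 is held in the cytoplasm by KEAP1, which passes it to a cullin-3 ubiquitin ligase for degradation. Oxidants and electrophiles modify cysteines of KEAP1, and NRF2 then accumulates, pairs with small MAF proteins and binds antioxidant response elements, so that its activity is set largely at the level of protein. Its targets make glutathione, reduce thioredoxin, quinones and peroxides, break down haem and supply NADPH. In the kidney the pathway is known as a defence of the tubular epithelium, and drugs that activate it have been studied in diabetic kidney disease.

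Both groups were db/db mice, which lack a working leptin receptor and become obese and diabetic. The strain was labelled C57 BLKS/L and the age was 50 weeks in both. The Db group (3 libraries) received saline and the Db + Ato10 group (3 libraries) received atorvastatin, an inhibitor of cholesterol synthesis, at 10 mg/kg per day for 40 weeks. According to the paper, statins were given by oral gavage and not on every day of the week. There was no non-diabetic group among these libraries, so each difference is between treated and untreated diabetic kidneys. The paper reports that most statin-treated mice had died by this time, so the treated kidneys are those of survivors. It raises survivor bias itself and, from a shorter experiment, holds that this may not be the main factor. The part of survival in the differences below was not tested. One label field describes the treatment of all 6 samples as atorvastatin, and another tells saline from atorvastatin; the groups follow the latter. The sources used here do not say that each library came from a separate mouse, so the p-values measure the spread between these libraries.

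Db replicates 1 to 3 held 13134930, 11381678 and 12426051 estimated reads over all genes (expected counts), and Db + Ato10 replicates 1 to 3 held 14578023, 14667909 and 13133241. Levels are given below as CPM, counts brought to a common library size and scaled by TMM (trimmed mean of M values, which corrects for RNA composition), unless TPM, which also divides by transcript length, is named. At these depths 3 counts corresponded to between 0.198 and 0.260 CPM, a limit that covers counting error only.

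The libraries were not alike within their groups. The lowest Spearman correlation of log2 CPM with a library of the same group was between 0.980 and 0.983 for the 3 Db libraries, 0.869 for Db + Ato10 replicates 1 and 3, and 0.922 for Db + Ato10 replicate 2. The study enrolled male mice, yet the 4 Y-linked genes together had only 2 counts in Db replicate 1, against 1419 to 2116 in the other 5 libraries. Where a call or the direction of a change described below rests on a single library, the value without that library is therefore given too. The tissue label was met by the kidney markers: all 10 proximal tubule markers, all 7 of the thick ascending limb and all 5 of podocytes were among the tested genes.

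Across the 10 genes, Hmox1, Slc7a11 and G6pdx were higher in all 3 Db + Ato10 libraries than in all 3 Db libraries, and none was lower in all 3. Groups did not overlap in that direction for 12.0% of all tested genes. With edgeR's quasi-likelihood test, 0 of 10 were called differentially expressed (fold change over 1.5 and Benjamini-Hochberg adjusted p under 0.05), and 0 of the 13679 tested genes were (0%). The same 3 genes had an unadjusted p under 0.05, beside 11.2% of all tested genes in that direction, and no member did in the other (5.71%). DESeq2 called Hmox1 and Slc7a11, both higher, beside 5.17% of all tested genes. Limma-voom called 0 members and 0 of the 13679 tested genes. The median log2 fold change was 0.20 over the 10 genes and -0.0063 over all tested genes, and 8 of 10 members were above 0 (7 to 10 with a library left out).

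These counts turned on single libraries. Without Db + Ato10 replicate 3, edgeR called Hmox1, Slc7a11 and G6pdx, beside 5.96% of tested genes called higher and 2.23% called lower, and DESeq2 called the same 3 (11.8% of tested genes called higher). The groups then did not overlap for 4 members in the higher direction, with Srxn1 added (25.4% of tested genes), and for Gclc in the lower (24.9%). Without Db replicate 1, the library with few Y-linked counts, edgeR had 0 members at an unadjusted p under 0.05 (5.16% of tested genes in the higher direction) and called 0, and DESeq2 called Slc7a11 (1.18%). Without Db replicate 2 the count at an unadjusted p under 0.05 was also 0 (8.58%), and without Db replicate 3 it was 1, Slc7a11 (5.23%).

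**Figure D1:**
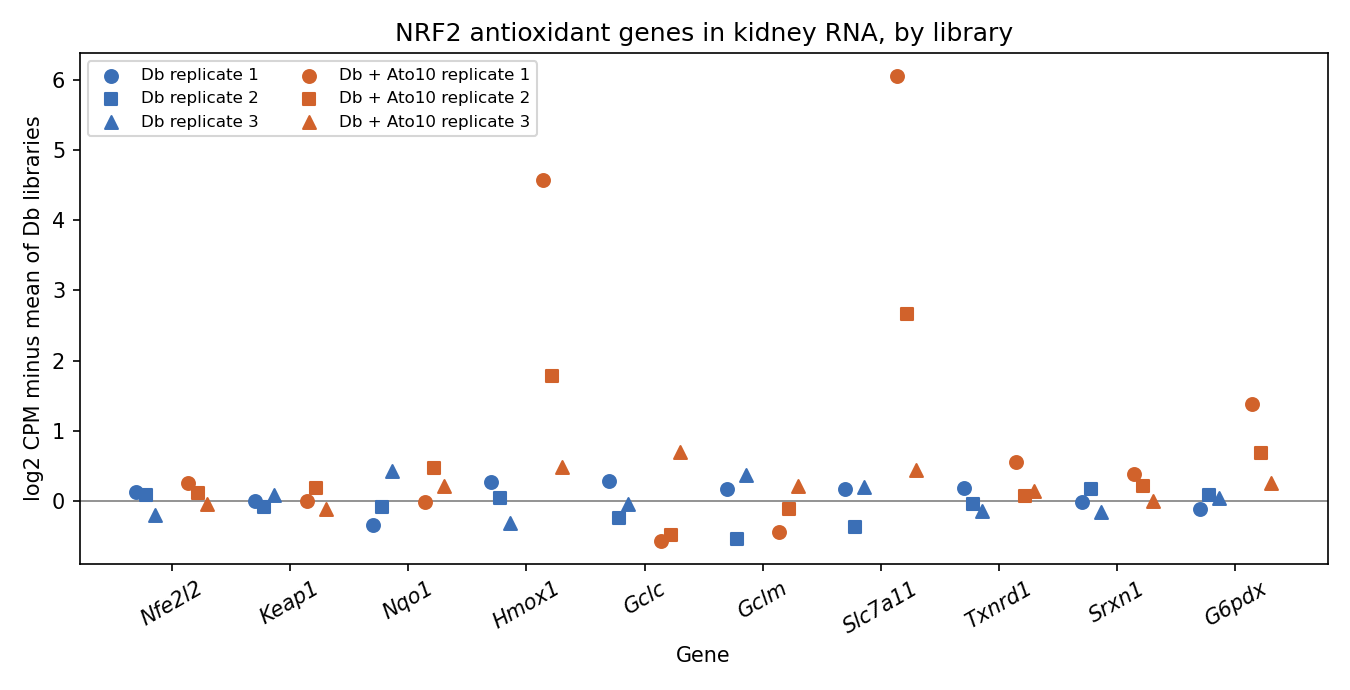
Log2 CPM of each of the 10 genes minus the mean of its Db libraries (vertical axis), by gene (horizontal axis), with 1 point per library; blue points are Db and orange points Db + Ato10, and the shape gives the replicate. Hmox1, Slc7a11 and G6pdx lie above all Db points in all 3 Db + Ato10 libraries and farthest in replicate 1, while the other 7 genes overlap.

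Per transcript length, the members differed widely in level. In the Db group Gclm was the most abundant at 167 ± 50.5 TPM (SD, n = 3), followed by Nqo1 at 132 ± 36.5, Nfe2l2 at 105 ± 12.7, Gclc at 101 ± 18.8, Txnrd1 at 90.4 ± 10.6 and Srxn1 at 79.9 ± 9.19 TPM. Neighbours among these 6 did not differ beyond their spread. Hmox1 at 35.1 ± 7.17 and G6pdx at 34.2 ± 2.52 TPM were close to each other and lower, Keap1 stood at 27.3 ± 1.14 TPM, and Slc7a11 was last at 0.167 ± 0.0404 TPM. In the Db + Ato10 group the mean of Hmox1, 301 ± 381 TPM, was the highest of the 10, with an SD larger than the mean. That rank rested on replicate 1 (739 TPM): in replicate 2 Hmox1 had 119 TPM, below Nqo1 (177) and Gclm (148), and in replicate 3 it had 45.5 TPM, below 6 members. Nqo1 and Gclm followed there at 144 ± 32.1 and 143 ± 35.1 TPM.

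Regulators were compared first. Nfe2l2 (NCBI Gene 18024) had 160, 155 and 127 CPM in Db replicates 1 to 3 and 175, 159 and 142 CPM in Db + Ato10 replicates 1 to 3. The groups overlapped, and the log2 fold change of Db + Ato10 over Db was 0.11 (SE 0.16, edgeR adjusted p = 0.724). Keap1 (NCBI Gene 50868), the cytoplasmic inhibitor, had 49.8, 47.2 and 52.7 CPM in the Db libraries and 49.9, 56.9 and 46.1 CPM in the Db + Ato10 libraries. Its lowest and highest libraries were both of the Db + Ato10 group, and its log2 fold change was 0.030 (SE 0.13, edgeR adjusted p = 0.912), a value whose sign turned without Db replicate 2 (-0.0075) or Db + Ato10 replicate 2 (-0.039).

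Of the quinone and haem enzymes, Nqo1 (NCBI Gene 18104), which reduces quinones with both electrons at once, is the target most often measured for NRF2 activity. It had 85.0, 102 and 144 CPM in the Db libraries and 106, 149 and 125 CPM in the Db + Ato10 libraries. Its groups overlapped, with a log2 fold change of 0.20 (SE 0.24, edgeR adjusted p = 0.661). With a library left out, the edgeR value for Nqo1 ran from 0.049 without Db replicate 1 to 0.44 without Db replicate 3. In the latter case its groups did not overlap. Hmox1 (NCBI Gene 15368) encodes haem oxygenase-1, which breaks haem down to biliverdin, iron and carbon monoxide and is also controlled by the repressor BACH1. It had 35.6, 30.3 and 23.5 CPM in the Db libraries and 703, 102 and 41.0 CPM in the Db + Ato10 libraries. All 3 Db + Ato10 libraries lay above all 3 Db libraries, at 23.6, 3.41 and 1.38 times the Db mean, so most of the difference was in replicate 1. The log2 fold change of Hmox1 was 3.24 (SE 1.03, edgeR adjusted p = 0.239, DESeq2 adjusted p = 0.00717). Without Db + Ato10 replicate 1 the log2 fold change of Hmox1 was 1.27 (edgeR adjusted p = 0.347), without Db + Ato10 replicate 3 it was 3.76 (edgeR adjusted p = 0.0426), and without Db replicate 1 it was 3.41 (edgeR adjusted p = 0.588). DESeq2 called Hmox1 neither without Db + Ato10 replicate 1 (adjusted p = 0.0638) nor without Db replicate 1 (adjusted p = 0.0838), Db replicate 2 (adjusted p = 0.0565) or Db replicate 3 (adjusted p = 0.107). Its DESeq2 log2 fold change was 1.27 without Db + Ato10 replicate 1. Without Db replicates 1, 2 and 3 it was 3.40, 3.27 and 3.11, beside 3.25 with all libraries.

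Glutathione synthesis depends on glutamate-cysteine ligase, whose catalytic subunit is encoded by Gclc and whose modifier subunit is encoded by Gclm, and on cystine taken up by the exchanger subunit encoded by Slc7a11. Gclc (NCBI Gene 14629) had 226, 156 and 180 CPM in the Db libraries and 125, 132 and 300 CPM in the Db + Ato10 libraries. The Db + Ato10 libraries lay on both sides of the Db group, with replicates 1 and 2 below all Db libraries and replicate 3 above them. The log2 fold change of Gclc was -0.013 (SE 0.37, edgeR adjusted p = 0.989) and -0.54 without Db + Ato10 replicate 3 (edgeR adjusted p = 0.146), and it was above 0 without Db replicate 1 (0.16), Db + Ato10 replicate 1 (0.21) or Db + Ato10 replicate 2 (0.19). Gclm (NCBI Gene 14630) had 208, 127 and 240 CPM in the Db libraries and 136, 171 and 214 CPM in the Db + Ato10 libraries. Its groups overlapped, with a log2 fold change of -0.14 (SE 0.28, edgeR adjusted p = 0.799) that was 0.014 without Db + Ato10 replicate 1 and, with Db replicate 3 left out instead, 0.051.

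Slc7a11 (NCBI Gene 26570) was near the limit of detection in the Db group, with 0.954, 0.607 and 0.969 CPM. In the Db + Ato10 libraries it had 64.7, 6.08 and 1.18 CPM, from 983, 90 and 15 counts. Replicates 1 and 2 stood at 76.8 and 7.21 times the Db mean, and replicate 3, at 1.40 times, lay just above the highest Db library. The log2 fold change of Slc7a11 was 4.81 (SE 1.48, edgeR adjusted p = 0.239, DESeq2 adjusted p = 0.00175), and 2.11 without Db + Ato10 replicate 1 (edgeR adjusted p = 0.353, DESeq2 adjusted p = 0.171). With DESeq2 the call of Slc7a11 held without any other single library, and without Db + Ato10 replicate 3 the edgeR adjusted p was 0.0380. The size of the change in Slc7a11 depended on the model: its log2 fold change was 3.30 with limma-voom, and on log2(TPM + 1), where the added 1 is larger than its Db mean of 0.167 TPM, it was 1.43.

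Thioredoxin reductase 1, encoded by Txnrd1 (NCBI Gene 50493), reduces thioredoxin with NADPH, and sulfiredoxin, encoded by Srxn1 (NCBI Gene 76650), repairs over-oxidised peroxiredoxins. Txnrd1 had 199, 170 and 157 CPM in the Db libraries and 255, 183 and 192 CPM in the Db + Ato10 libraries. Only Db + Ato10 replicate 1 exceeded Db replicate 1, so the groups overlapped, and the log2 fold change was 0.26 (SE 0.19, edgeR adjusted p = 0.471). Without Db replicate 1 the Txnrd1 groups no longer overlapped, and the log2 fold change was 0.38 (edgeR adjusted p = 0.607). It was 0.11 without Db + Ato10 replicate 1 (edgeR adjusted p = 0.798) and 0.19 without Db replicate 3 (edgeR adjusted p = 0.745). Srxn1 had 125, 142 and 114 CPM in the Db libraries and 165, 147 and 126 CPM in the Db + Ato10 libraries. Db + Ato10 replicate 3 lay between Db replicates 1 and 2, and the log2 fold change of Srxn1 was 0.20 (SE 0.16, edgeR adjusted p = 0.516).

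G6pdx (NCBI Gene 14381) encodes glucose-6-phosphate dehydrogenase, the entry enzyme of the pentose phosphate pathway, which supplies NADPH to the reductases above. It had 46.2, 53.2 and 51.4 CPM in the Db libraries and 130, 81.0 and 60.0 CPM in the Db + Ato10 libraries. The Db libraries were close together, and all 3 Db + Ato10 libraries lay above them, at 2.60, 1.61 and 1.19 times the Db mean. The log2 fold change of G6pdx was 0.85 (SE 0.28, edgeR adjusted p = 0.243, DESeq2 adjusted p = 0.103). It was 0.50 without Db + Ato10 replicate 1 (edgeR adjusted p = 0.355), 1.08 without Db + Ato10 replicate 3 (edgeR adjusted p = 0.0467, DESeq2 adjusted p = 0.00257) and 0.80 without Db replicate 1 (edgeR adjusted p = 0.588).

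Markers of other cells moved in the order of Hmox1, Slc7a11 and G6pdx across the Db + Ato10 libraries. The 10 macrophage markers summed to 130, 234 and 177 CPM in the Db libraries and to 4840, 1250 and 264 CPM in the Db + Ato10 libraries. All 10 were tested, and Lyz2 was the most abundant. Of the 7 neutrophil markers, which summed to 5.48, 9.54 and 5.41 CPM in the Db libraries and to 8890, 96.9 and 10.6 CPM in the Db + Ato10 libraries, 3 were tested and S100a9 was the most abundant. Ly6g, Mpo and Elane are named after the values were seen. Ly6g, a defining neutrophil marker, had 1, 0 and 1 counts in the Db libraries and 396, 7 and 0 counts in the Db + Ato10 libraries. Mpo and Elane were at 0 in Db replicates 2 and 3 and in Db + Ato10 replicate 3. Both lists were thus highest in Db + Ato10 replicate 1, then in replicate 2, and in replicate 3 just above the Db range. The 7 T and B cell markers, of which 2 were tested and Cd79a was the most abundant, summed to between 1.59 and 5.03 CPM in the Db libraries and to 26.1, 9.25 and 2.68 CPM in the Db + Ato10 libraries.

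Fibroblast and squamous markers had that order too. The 6 fibroblast and myofibroblast markers, with Col1a2 the most abundant, summed to 125, 172 and 108 CPM in the Db libraries and to 1337, 641 and 216 CPM in the Db + Ato10 libraries. The 8 markers of squamous and urothelial epithelium, of which 5 were tested and Krt5 was the most abundant, summed to between 3.38 and 6.20 CPM in the Db libraries and to 168, 92.8 and 27.7 CPM in the Db + Ato10 libraries. The lists of tubular injury, of the tubule segments, of podocytes and of endothelium did not share it. The 6 markers of tubular injury, with Spp1 the most abundant, summed to 2922, 3464 and 1859 CPM in the Db libraries and to 14404, 30289 and 9560 CPM in the Db + Ato10 libraries, highest in replicate 2. The 7 markers of the thick ascending limb, with Umod the most abundant, summed to 8698, 9463 and 8887 CPM in the Db libraries and to 4761, 2295 and 6229 CPM in the Db + Ato10 libraries, lowest in replicate 2. For the 10 proximal tubule markers, with Slc34a1 the most abundant, the sums were 16376, 12479 and 16190 CPM in the Db libraries and 2026, 7987 and 15306 CPM in the Db + Ato10 libraries, lowest in replicate 1, the reverse of the order of Hmox1. The distal convoluted tubule markers summed to 3799, 4170 and 2745 CPM in the Db libraries and to 1976, 1120 and 1857 CPM in the Db + Ato10 libraries. Collecting duct markers had 811, 629 and 1001 CPM and 630, 376 and 648 CPM. For the tubule lists these sums were thus lowest in a Db + Ato10 library. Podocyte markers had 570, 371 and 367 CPM in the Db libraries and 573, 197 and 373 CPM in the Db + Ato10 libraries. Endothelium markers had 303, 252 and 280 CPM and 347, 133 and 264 CPM. The 5 erythroid markers, of which 4 were tested, summed to 707, 629 and 2622 CPM in the Db libraries and to 935, 176 and 407 CPM in the Db + Ato10 libraries, with Hba-a1 the most abundant; these ranges overlapped and did not share the order of Hmox1. The part of these cells in the levels of Hmox1, Slc7a11 and G6pdx was not tested. In bulk kidney RNA, fewer cells of a type and less RNA per cell cannot be told apart.

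The transcript table resolved the members into 20 RefSeq transcripts, of which 17 passed the count limit. With edgeR, 0 of these 17 were called and 0 of all 30175 tested transcripts were (0%), while 4 had an unadjusted p under 0.05, all of them higher in the Db + Ato10 group (5.38% of tested transcripts). These 4 were the single transcripts of Hmox1 and G6pdx and 1 transcript each of Slc7a11 and Txnrd1. DESeq2 called 1, that of Hmox1 (1.90% of tested transcripts were called higher). Nfe2l2, Nqo1, Hmox1, Gclm, Srxn1 and G6pdx each had 1 transcript in the table, and how reads were divided among the transcripts of the other 4 genes is an estimate.

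Txnrd1 had 4 transcripts, of which 3 were tested. Its transcript NM_015762.2 had 7.52, 23.2 and 21.1 TPM in the Db libraries and 69.5, 43.6 and 26.1 TPM in the Db + Ato10 libraries. All 3 Db + Ato10 libraries lay above the Db libraries, replicate 3 by the least. The transcript NM_001042513.1, the more abundant in each Db library, had 92.3, 64.0 and 58.5 TPM in the Db libraries and 47.5, 50.7 and 67.2 TPM in the Db + Ato10 libraries, with overlapping groups. The share of Txnrd1 TPM assigned to NM_015762.2 was 7.37%, 26.4% and 26.0% in the Db libraries and 58.3%, 45.9% and 27.9% in the Db + Ato10 libraries. Its mean was 19.9% ± 10.9 in the Db group and 44.0% ± 15.3 in the Db + Ato10 group (SD, n = 3 each). This share was examined after the values had been seen, so it is given as a description. The log2 fold change of NM_015762.2 was 1.57 (SE 0.56, edgeR adjusted p = 0.562), and 1.21 without Db replicate 1 (edgeR adjusted p = 0.938).

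**Figure D2:**
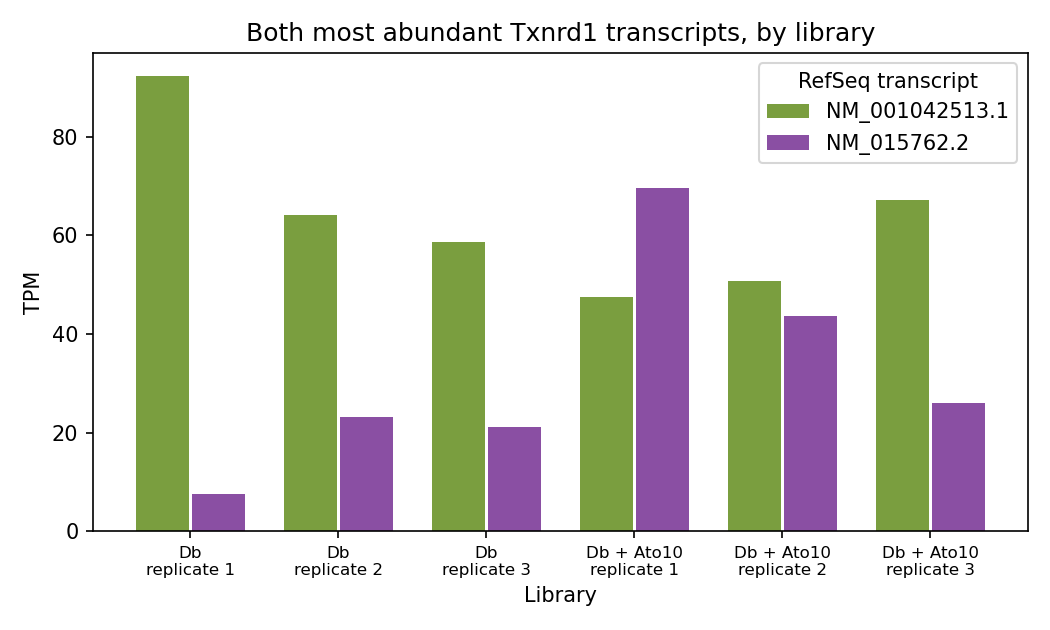
TPM (vertical axis) of both most abundant Txnrd1 transcripts in each of the 6 libraries (horizontal axis), 1 bar per transcript and library. NM_015762.2 (purple) is at most 23.2 TPM in the Db libraries and at least 26.1 TPM in the Db + Ato10 libraries, and exceeds NM_001042513.1 (green) in Db + Ato10 replicate 1.

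Slc7a11 had 3 transcripts, of which 1 was tested. XM_017319590.1 was present in all 6 libraries, with 12, 7 and 12 estimated counts in the Db libraries and 253, 27.3 and 15 in the Db + Ato10 libraries. NM_011990.2 was listed at 0 in the 3 Db libraries and in Db + Ato10 replicate 3, and had 691 and 62.7 estimated counts in Db + Ato10 replicates 1 and 2. In both of these libraries it made up most of the gene's TPM, at 68.9% and 68.4%. The Gclc reads were divided mainly between NM_010295.2 and XM_006510812.1, and the share of NM_010295.2 was 46.6%, 36.5% and 55.7% in the Db libraries and 20.6%, 43.0% and 45.6% in the Db + Ato10 libraries. For Gclc the groups overlapped, with replicate 1 of Db + Ato10 lowest. Keap1 had 4 transcripts, and NM_001110307.1 held between 74.0% and 97.2% of its TPM in each library.

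Promoter sequences of 8 of the 10 members were read from RefSeq (assembly GRCm38.p6), in windows of 300 bases from 250 before to 50 after each start, and Hmox1 and Gclc were not among them. The core letters of the antioxidant response element, TGACNNNGC, and their variant TGAGNNNGC were searched on both strands, where N is any base. Of all 32851 promoter windows, 12.4% held the first, 17.6% the second and 27.8% either. Of the 10 windows of the members (3 for Txnrd1), 6 held a match, 1 each in Nfe2l2, Gclm, Slc7a11, Txnrd1 and G6pdx and 3 in Srxn1, and the windows of Keap1 and Nqo1 held none. A match of these letters is a description of the window and not a binding site. The windows of Slc7a11 and G6pdx are shown because both genes were higher in all 3 Db + Ato10 libraries, and that of Srxn1 because it held the most matches while its groups overlapped. Each is written 5′ to 3′ along the gene's strand, with matches in capitals; a match on the opposite strand appears as its reverse complement.
Slc7a11 (chr3:50443564-50443863, minus strand): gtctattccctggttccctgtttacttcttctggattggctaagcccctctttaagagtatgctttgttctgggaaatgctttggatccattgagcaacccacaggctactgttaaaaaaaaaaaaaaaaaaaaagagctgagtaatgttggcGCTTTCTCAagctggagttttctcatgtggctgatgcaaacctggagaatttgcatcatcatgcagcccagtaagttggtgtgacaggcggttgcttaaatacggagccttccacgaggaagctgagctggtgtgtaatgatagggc
G6pdx (chrX:74428831-74429130, minus strand): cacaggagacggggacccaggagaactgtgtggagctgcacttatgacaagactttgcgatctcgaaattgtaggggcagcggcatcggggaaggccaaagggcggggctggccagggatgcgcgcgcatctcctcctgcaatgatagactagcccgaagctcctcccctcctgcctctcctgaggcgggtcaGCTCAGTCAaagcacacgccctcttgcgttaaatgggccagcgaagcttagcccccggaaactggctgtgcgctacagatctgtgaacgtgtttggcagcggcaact
Srxn1 (chr2:152105274-152105573, plus strand): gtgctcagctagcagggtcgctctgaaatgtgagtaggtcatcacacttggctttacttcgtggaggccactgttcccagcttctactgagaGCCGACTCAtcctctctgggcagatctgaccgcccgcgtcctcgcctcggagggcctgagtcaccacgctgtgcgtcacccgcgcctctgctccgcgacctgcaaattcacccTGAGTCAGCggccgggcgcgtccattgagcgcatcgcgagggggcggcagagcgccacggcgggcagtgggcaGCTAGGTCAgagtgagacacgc
The match in Slc7a11 was TGAGAAAGC on the opposite strand, from 97 to 89 bases before the start, and that in G6pdx was TGACTGAGC on the opposite strand, from 57 to 49 bases before it. In Srxn1 the match on the gene's own strand, TGAGTCAGC, from 45 to 37 bases before the start, contains the letters of an AP-1 site, which overlap the antioxidant response element. The other matches in Srxn1 were TGAGTCGGC and TGACCTAGC, both on the opposite strand. Those of the remaining members were TGACTCCGC in Nfe2l2, TGACGGTGC in Gclm and TGACAAAGC in Txnrd1.

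The wider pathway was described with 63 further genes of regulation, glutathione, thioredoxin, NADPH, iron and xenobiotic metabolism, of which 60 were tested; Gpx2, Gstm3 and Aox1 were below the count limit. With edgeR, 0 of 60 were called, and at an unadjusted p under 0.05 there were 8 higher and 5 lower, or 13 in all, beside 11.2% and 5.71% of all tested genes. Groups did not overlap for 8 genes in the higher and 6 in the lower direction, beside 12.0% and 11.3% of all tested genes. Both counts of higher genes include Nfe2l3, which passed the count limit through the Db + Ato10 libraries alone. A limit of 10 counts in every library left it out. Of 59 genes, edgeR then had 8 higher and 4 lower at an unadjusted p under 0.05, beside 2040 of 12675 tested genes. Limma-voom called 0 of 60, beside 0 of all tested genes. DESeq2 called 4, all higher, beside 5.17% of tested genes called higher and 1.29% called lower. These were Maff, Nfe2l3, Gsr and Akr1b8, named after their values were seen, and this count too includes Nfe2l3. Without Db + Ato10 replicate 3 edgeR called 4 of 59, Maff, Gsr, Pgd and Akr1b8, all higher, beside 5.96% of tested genes called higher and 2.23% called lower, and without any other library it called 0. DESeq2 without that library called 11 of 59, 6 higher and 5 lower, beside 11.8% and 7.50% of tested genes, and without any other library it called 2 to 4, beside 195 to 623 genes of all those tested. The 13 at an unadjusted p under 0.05, beside 2314 of all tested genes, became 7 without Db replicate 1 (1043 of all genes) or Db replicate 2 (1657), 8 without Db replicate 3 (1113) or Db + Ato10 replicate 2 (1534), 9 without Db + Ato10 replicate 1 (1667) and, with Db + Ato10 replicate 3 left out, 18 (4038), so the count over all genes fell and rose with them. The median log2 fold change of the 60 genes was 0.056, beside -0.0063 over all tested genes. On log2(TPM + 1), a scale that lowered the median over all genes to -0.080, it was -0.024.

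Among the 12 regulators in this list, the most abundant by CPM was Sqstm1, an autophagy receptor that binds KEAP1, at 520 ± 52.0 CPM without and 588 ± 141 CPM with atorvastatin (SD, n = 3 each). The log2 fold change of Sqstm1 was 0.18, and 0.0065 without Db + Ato10 replicate 1. Nfe2l3, a relative of NRF2, averaged 0.570 ± 0.199 CPM without and 3.29 ± 2.29 CPM with atorvastatin (SD, n = 3 each). Its groups did not overlap (log2 fold change 2.51, SE 0.62, edgeR adjusted p = 0.239, DESeq2 adjusted p = 0.0122), and its levels were low in both. With 8, 4 and 9 counts in the Db libraries, it passed the count limit through the Db + Ato10 libraries alone. A gene below 10 counts in every Db library could pass only with higher counts in all 3 Db + Ato10 libraries. The lack of overlap and the p-values of Nfe2l3 are therefore a description. DESeq2 did not call Nfe2l3 without Db replicate 1 (adjusted p = 0.0995), Db replicate 2 (adjusted p = 0.0791) or Db replicate 3 (adjusted p = 0.0710), and without a Db + Ato10 library it was below the count limit. Without Db replicates 1, 2 and 3 the DESeq2 log2 fold change of Nfe2l3 was 2.62, 2.28 and 2.75, beside 2.54 with all libraries. Nfe2l1, another relative, which controls proteasome genes, had 310, 296 and 277 CPM in the Db libraries and 239, 204 and 226 CPM in the Db + Ato10 libraries. All 3 Db + Ato10 libraries were below the Db libraries (log2 fold change -0.40, SE 0.15, edgeR adjusted p = 0.263). Maff, which encodes a small MAF partner of NRF2, had 6.04, 4.85 and 2.91 CPM in the Db libraries and 29.8, 16.4 and 8.98 CPM in the Db + Ato10 libraries, again without overlap (log2 fold change 2.00, SE 0.50, edgeR adjusted p = 0.239, DESeq2 adjusted p = 0.00552). DESeq2 did not call Maff without Db replicate 3 (log2 fold change 1.77, adjusted p = 0.0931) or Db + Ato10 replicate 1 (log2 fold change 1.47, adjusted p = 0.0526).

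In glutathione metabolism the most abundant gene by CPM was Gpx3, the secreted glutathione peroxidase made by the proximal tubule, at 43549, 54119 and 39597 CPM in the Db libraries and 29253, 47685 and 49523 CPM in the Db + Ato10 libraries. Replicate 1 of Db + Ato10 was the lowest and the groups overlapped. Gsr, which encodes the reductase that regenerates glutathione, had 130, 148 and 155 CPM in the Db libraries and 281, 244 and 212 CPM in the Db + Ato10 libraries. All 3 Db + Ato10 libraries were above the Db libraries, and even replicate 3 exceeded the highest of them by more than the Db range (log2 fold change 0.76, SE 0.17, edgeR adjusted p = 0.239, DESeq2 adjusted p = 0.00265). Without Db replicate 1 the log2 fold change of Gsr was 0.71 and DESeq2 did not call it (adjusted p = 0.0671), and without any other single library it did. Abcc4, an efflux transporter, had 144, 184 and 190 CPM in the Db libraries and 97.4, 109 and 135 CPM in the Db + Ato10 libraries, without overlap (log2 fold change -0.60, SE 0.19, edgeR adjusted p = 0.239; called by DESeq2 only without Db + Ato10 replicate 3, adjusted p = 0.00837).

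The NADPH genes other than G6pdx were led in CPM by Idh1, which had 565, 523 and 824 CPM in the Db libraries and 402, 1014 and 728 CPM in the Db + Ato10 libraries, with overlap. Pgd, whose enzyme takes the second NADPH-forming step after G6pdx, had 105, 106 and 116 CPM in the Db libraries and 276, 204 and 126 CPM in the Db + Ato10 libraries. As for G6pdx, all 3 Db + Ato10 libraries were above the Db range, highest in replicate 1 (log2 fold change 0.89, SE 0.28, edgeR adjusted p = 0.239, DESeq2 adjusted p = 0.0664). The log2 fold change of Pgd was 1.15 without Db + Ato10 replicate 3 (edgeR adjusted p = 0.0295) and 0.61 without Db + Ato10 replicate 1 (edgeR adjusted p = 0.362). Me1, malic enzyme, had overlapping groups and a log2 fold change of -0.16 (SE 0.35) whose sign rested on Db + Ato10 replicate 1 (0.15 without it).

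Of the thioredoxin and peroxiredoxin genes, Txn1, the thioredoxin that Txnrd1 reduces, had 218, 246 and 278 CPM in the Db libraries and 331, 341 and 303 CPM in the Db + Ato10 libraries, without overlap (log2 fold change 0.39, SE 0.16, edgeR adjusted p = 0.290). Prdx5, the most abundant of them by CPM, averaged 1047 ± 36.8 CPM without and 996 ± 181 CPM with atorvastatin (SD, n = 3 each; log2 fold change -0.072, and 0.069 without Db + Ato10 replicate 2). Osgin1 had 220, 73.4 and 106 CPM in the Db libraries and 42.4, 57.2 and 91.0 CPM in the Db + Ato10 libraries, with overlap and with Db replicate 1 far above the rest (log2 fold change -1.07, SE 0.47, edgeR adjusted p = 0.313). Without Db replicate 1 the log2 fold change of Osgin1 was -0.49 (edgeR adjusted p = 0.636), and DESeq2 called it only without Db + Ato10 replicate 3 (adjusted p = 0.0293).

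For iron and haem, Fth1, the ferritin heavy chain, had 5368, 4803 and 5513 CPM in the Db libraries and 10199, 5125 and 6891 CPM in the Db + Ato10 libraries. Replicate 1 was the highest and replicate 2 lay within the Db range, so the order differed from that of Hmox1. Blvrb, a biliverdin reductase, and Fech, which completes haem synthesis, had log2 fold changes of 0.81 (SE 0.43) and -0.36 (SE 0.26), both with overlapping groups. Without Db + Ato10 replicate 1 these were 0.18 for Blvrb and -0.13 for Fech.

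Among the carbonyl, quinone and xenobiotic enzymes, Akr1b8, an aldo-keto reductase, had 2.46, 7.37 and 2.50 CPM in the Db libraries and 47.1, 31.3 and 11.3 CPM in the Db + Ato10 libraries. No Db + Ato10 library came within the Db range (log2 fold change 2.87, SE 0.67, edgeR adjusted p = 0.239, DESeq2 adjusted p = 0.000963). Nqo2, the quinone reductase related to Nqo1, had 48.6, 52.4 and 59.9 CPM in the Db libraries and 33.7, 36.3 and 42.1 CPM in the Db + Ato10 libraries, so it was lower without overlap while Nqo1 overlapped (log2 fold change -0.52, SE 0.15, edgeR adjusted p = 0.239; called by DESeq2 only without Db + Ato10 replicate 3, adjusted p = 0.0225). Akr1a1, the most abundant of this role by CPM, averaged 2196 ± 111 CPM without and 1791 ± 674 CPM with atorvastatin (SD, n = 3 each). The log2 fold change of Akr1a1 was -0.29, and -0.027 without Db + Ato10 replicate 1.

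**Figure D3:**
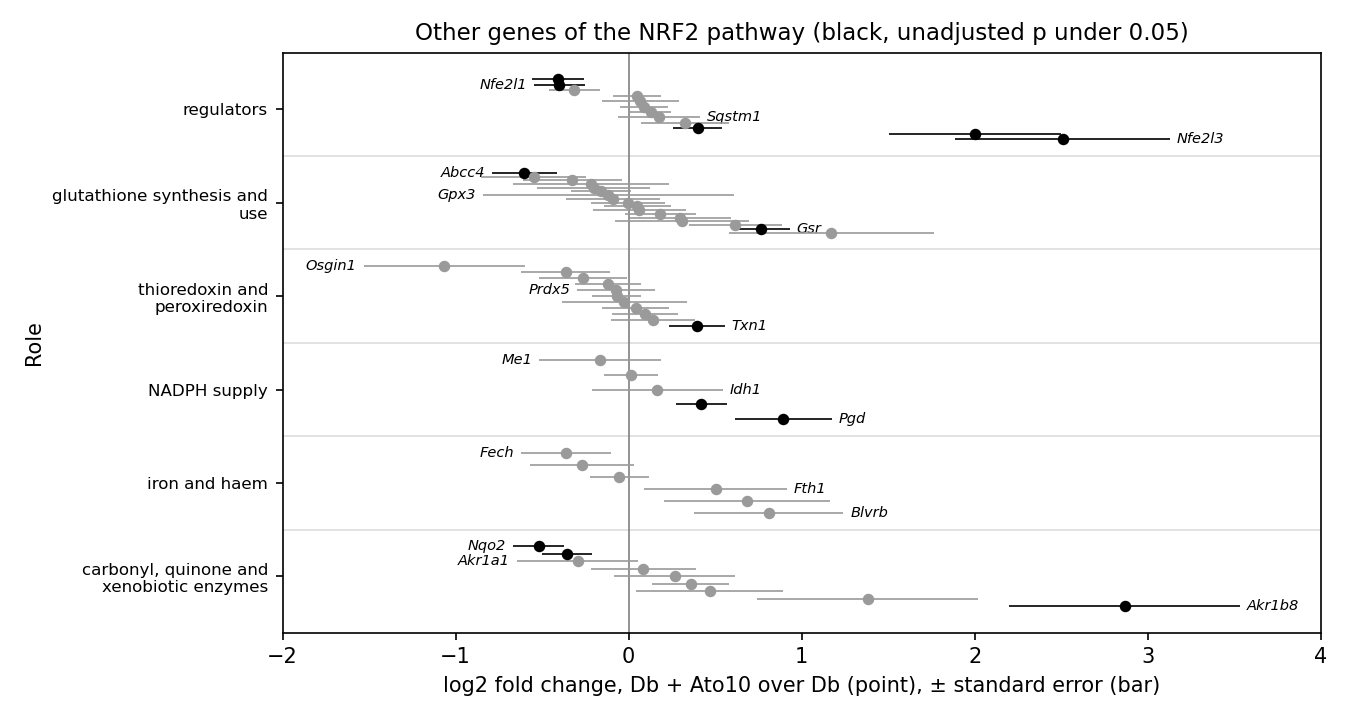
Log2 fold change of Db + Ato10 over Db (horizontal axis; points, with bars of ± 1 standard error) of the 60 tested genes of the wider NRF2 pathway, grouped by role (vertical axis); black marks an unadjusted edgeR p under 0.05. Black points lie on both sides of 0, 8 higher and 5 lower, and none passed the adjusted threshold.

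The superoxide dismutases and catalase, which remove superoxide and hydrogen peroxide, were set beside these genes. All 4 (Sod1, Sod2, Sod3 and Cat) had overlapping groups, beside 12.0% and 11.3% of all tested genes without overlap in the higher and the lower direction. With edgeR 0 of 4 had an unadjusted p under 0.05 (11.2% and 5.71%) and 0 were called (0%), and DESeq2 called 0 (5.17% and 1.29%). The log2 fold changes of Sod1 and Cat were below 0 without each library in turn. That of Sod2, -0.22, was 0.043 without Db + Ato10 replicate 2, and that of Sod3, -0.015, turned to 0.050 without Db replicate 1, to 0.11 without Db replicate 3 and, with Db + Ato10 replicate 1 left out, to 0.29. Cat was the most abundant of them by CPM, with 1316, 987 and 1461 CPM in the Db libraries and 311, 686 and 1283 CPM in the Db + Ato10 libraries. Its lowest values were in Db + Ato10 replicates 1 and 2, and replicate 3 lay within the Db range (log2 fold change -0.72, SE 0.51, edgeR adjusted p = 0.464). It was -0.34 without Db + Ato10 replicate 1. With Db + Ato10 replicate 3 left out it was -1.33, and DESeq2 then called Cat (adjusted p = 0.00828), beside 7.50% of tested genes called lower.

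The tested genes whose log2 CPM followed Hmox1 most closely over the 6 libraries were Cd38, Stx11 and Samsn1, with Pearson correlations of 0.999, 0.999 and 0.998. Their log2 fold changes were 3.04, 4.35 and 5.46. For Nfe2l2 the closest were Sh3bp4, Rest and Tfap2a (0.997, 0.997 and 0.996), and for Nqo1 they were Mrpl40, Ppcdc and Rhbdd1 (0.996, 0.980 and 0.978). These correlations are the highest of many over 6 libraries of 2 groups and are given as a description.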

How the data were processed

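Kidney RNA was measured in 3 Db and 3 Db + Ato10 libraries on the BGISEQ-500 platform. The authors deposited expected counts (estimated reads, not normalized), FPKM (scaled to length and library size) and TPM (scaled to length and to 1 sum per library) per gene and per transcript. The submitters' processing notes name HISAT, Bowtie2 2.2.5 and the build mm9; the counting tool is not given in the sources used here. Of the deposited gene counts, 91.3% were whole (to within 1e-09), library sums ran from 11381678 to 14667909 counts, and 0 pairs of libraries were identical.

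Expected counts were rounded and fitted with edgeR 4.0.16 in R 4.3.3 (TMM, quasi-likelihood F test, installed default, Benjamini-Hochberg adjustment over all tested genes). Tested genes reached 10 counts in 3 or more libraries. Called genes had a fold change over 1.5 and an adjusted p under 0.05, as in the study, whose text names no test. Standard errors were the absolute log2 fold change over the root of F. Log2 CPM used a prior count of 2. Alternatives were DESeq2 1.42.0, limma 3.58.1 (voom, or log2 of FPKM + 1, TPM + 1 or TPM + 0.1), other filters, another normalization, no fold change threshold, the replicate number as a block, and each library left out with edgeR and with DESeq2. The bias-adjusted deviances of edgeR were chosen after seeing the data, as was an exact permutation test of transcript shares, whose p is not quoted because the share was picked by its values. The fits were also run on simulated counts with known changes. Every gene had the same dispersion there, so this did not test them at the spread of the Db + Ato10 libraries. Plots used matplotlib 3.10.9 (Python 3.11.15).

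The members and gene lists were chosen with earlier results of these data known. Named genes were the 10 members; from each role of the wider list the most abundant gene and that with the smallest p in each direction; every listed gene called by edgeR (0); and the 3 genes most like Nfe2l2, Nqo1 and Hmox1. Others are said to be chosen after their values were seen. Promoter coordinates are of GRCm38.p6 and were not compared with mm9.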

Additional observations from a re-analysis of the deposited data

How the results depend on the processing

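The medians of both lists moved under every alternative by less than the larger of both groups' SDs of the median per library, though not always by less than the smaller (that of the wider list was -0.024 on the TPM scales, which also lowered the median over all tested genes), and Nfe2l2, Nqo1, Hmox1, Slc7a11, Txnrd1, Srxn1 and G6pdx kept their direction in every alternative that gave a value. Slc7a11 had none with at least 10 counts in every library. The size of its log2 fold change, 4.81, was 3.30 with limma-voom, 3.47 with the replicate block, 1.21 on log2(FPKM + 1), 1.43 on log2(TPM + 1) and 2.63 on log2(TPM + 0.1). That of Hmox1, 3.24, was between 2.17 and 2.26 in these. Members called were 0 with edgeR and 2 with DESeq2, and ranged from 0 to 3 with a library left out. Members at an unadjusted p under 0.05 were 1 rather than 3 with limma-voom and with limma on log2(FPKM + 1), log2(TPM + 1) and log2(TPM + 0.1), G6pdx each time, and 0 to 4 with a library left out. Members whose groups did not overlap numbered 3 to 5 with a library left out, beside 28.5% to 50.4% of all tested genes in both directions (23.2% with all 6), the most of each without Db + Ato10 replicate 3. Pathway genes called were 4 with DESeq2 and 0 to 11 with a library left out, the 11 without Db + Ato10 replicate 3 under DESeq2, where 2614 of 13517 tested genes were called, and those at an unadjusted p under 0.05 ranged from 7 to 20, the highest in the same fit. DESeq2 called 1 member transcript. The cause of these changes was not tested.

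The log2 fold change of Keap1 turned negative with limma on log2(TPM + 1) (-0.046) and log2(TPM + 0.1) (-0.048), where the median over all tested genes was -0.080 and -0.092 rather than -0.0063, a shift of similar size. It ranged from -0.039 to 0.11 with a library left out. Gclc, at -0.013, turned positive with upper-quartile normalization (0.0030) and at least 10 counts in every library (0.0035), which moved the median over all tested genes upward too (to 0.0059 and -0.00049), and ranged from -0.54 to 0.21. Gclm ranged from -0.36 to 0.059. None of the 3 was called in any of these.

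The replicate number as a block, which changed no call, gave 0 members called, 3 members at an unadjusted p under 0.05, 0 pathway genes called and 0 member transcripts called. Same-numbered libraries deviated from their group means with correlations of -0.15, 0.061 and 0.21, and not every library correlated best with its own number. With 3 libraries per group, these values cannot tell whether same-numbered libraries shared more than a number. Adjusted p-values over the alternatives ran from 2.6e-06 to 0.588 for Hmox1, from 5.1e-08 to 0.588 for Slc7a11 and from 0.00257 to 0.588 for G6pdx. Depth limited Slc7a11 in the Db group, at 7 to 12 counts.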
